A study of Homo sapiens with 8 samples.

Results

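The genes described here are the autophagy machinery, the proteins that build autophagosomes, load them with cargo and fuse them with lysosomes. The list holds 43 genes, chosen by symbol, and for a gene with more than 1 row the row with the highest mean level was taken. Of the 43, 33 had a row that the platform annotation names, among 14884 named genes. All 33 passed the filter on low levels and were tested among 12734 genes. The other 10 listed genes, ATG4A, ATG4B, ATG4C, ATG4D, BECN1, NBR1, PIK3C3, PIK3R4, WIPI1 and WIPI2, had no named row and were not analysed here, so the ATG4 proteases and most of the core lipid kinase complex are not covered.

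RNA was taken from the established human multiple myeloma cell lines NCI-H929 and MM1.S and hybridised to Affymetrix Human Gene ST arrays. All levels given here are of RNA, and the arrays measure neither protein nor autophagosomes. The 4 groups, with 2 arrays each, were NCI-H929 with a short hairpin against SIRT6 (shSIRT6), NCI-H929 with a scramble hairpin, MM1.S with shSIRT6 and MM1.S with the scramble hairpin. SIRT6 is an NAD-dependent deacetylase of chromatin. Every group thus carried a hairpin construct, and the labels name neither the target sequence nor a second hairpin against SIRT6, so the effect of a lower SIRT6 level and any other effect of that hairpin cannot be told apart.

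Autophagy starts when the ULK1 kinase complex activates a phosphatidylinositol 3-kinase complex on membranes close to the endoplasmic reticulum. ATG9A vesicles and ATG2 lipid transfer proteins then enlarge the membrane, while a ubiquitin-like conjugation system couples the ATG8 proteins (the LC3 and GABARAP families) to it. Receptors such as SQSTM1 bind ubiquitinated cargo and ATG8 proteins at once, and TFEB and TFE3 are transcription factors that induce autophagy and lysosome genes when mTORC1 is inactive. Mouse plasma cells are known to need autophagy to sustain antibody production, and myeloma is a cancer of plasma cells.

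SIRT6 itself was lower with the hairpin in both lines, but in neither did the difference pass the test. Its log2 level was 6.25 and 6.31 with shSIRT6 in NCI-H929, against 6.53 and 6.97 with scramble. In MM1.S it was 5.60 and 5.78 with shSIRT6 and 6.09 and 5.88 with scramble. The arrays of the constructs did not overlap in either line. The differences were -0.47 ± 0.161 in NCI-H929 (limma SE, Benjamini-Hochberg adjusted p = 0.276) and -0.30 ± 0.161 in MM1.S (limma, adjusted p = 0.355). Between the lines, SIRT6 was higher in NCI-H929. The difference was 0.59 ± 0.161 with shSIRT6 (limma adjusted p = 0.0231) and 0.765 ± 0.161 with scramble (limma adjusted p = 0.00729). The NCI-H929 arrays with shSIRT6 thus still lay above the MM1.S arrays with scramble.

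The lines carried their labelled markers. The mean log2 level of FGFR3 and NSD2, the translocation genes of NCI-H929, was 7.67 to 7.97 on NCI-H929 arrays and 6.23 to 6.42 on MM1.S arrays. That of MAF and CCND2, high in MM1.S, was 7.39 to 8.08 on NCI-H929 arrays and 10.04 to 10.18 on MM1.S arrays. CCND2 itself fell with the hairpin in NCI-H929, by 1.08 ± 0.0986 (limma adjusted p = 0.0484), with 6.86 and 6.71 with shSIRT6, against 7.89 and 7.84 with scramble, and in MM1.S it differed by 0.13. The difference of its effects passed (-1.21 ± 0.139, limma adjusted p = 0.0371). That call held in 6 of 16 alternatives, with values from -1.285 to -0.805. It was lost with the mean of the 2 rows of CCND2 and without any 1 of the 8 arrays. All 7 named plasma cell markers passed the filter, with a mean of 9.37 to 9.69 over the arrays, and SDC1, the plasma cell surface proteoglycan CD138, rose with the hairpin in MM1.S by 0.52 ± 0.0908 (limma adjusted p = 0.0461). Without any 1 of the 8 arrays neither the CCND2 nor the SDC1 call between the constructs passed. Of the markers of other cells, both named stromal genes (DCN and LUM) lay under the filter, and the 4 T and NK cell genes averaged 4.28 to 4.64. Of the 4 myeloid genes with a named row, LYZ lay under the filter, while CD14 ranged from 3.15 to 3.79 over the 8 arrays, CSF1R from 4.13 to 4.82 and CD68, also a lysosomal membrane protein, from 8.44 to 10.47. Over all rows the correlation was 0.989 to 0.992 within a group, 0.985 to 0.989 between the constructs of a line and 0.942 to 0.95 between the lines. The labels do not state whether the replicate arrays were separate cultures, and the p-values then cover only the spread of the arrays, possibly technical. In such bulk RNA a smaller number of cells with a transcript and less transcript per cell cannot be told apart.

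The promoter of DRAM2 and one of the annotated promoters of TAX1BP1 are shown because these were the members that changed with the hairpin in MM1.S. Each window runs from 250 bases before to 50 bases after the gene start, read from RefSeq on GRCh38.p14 in the direction of the gene, and no base is in capitals because none of the motifs searched occurs in it. DRAM2 lies at chr1:111140044-111140343 on the minus strand and TAX1BP1 at chr7:27739912-27740211 on the plus strand.
DRAM2: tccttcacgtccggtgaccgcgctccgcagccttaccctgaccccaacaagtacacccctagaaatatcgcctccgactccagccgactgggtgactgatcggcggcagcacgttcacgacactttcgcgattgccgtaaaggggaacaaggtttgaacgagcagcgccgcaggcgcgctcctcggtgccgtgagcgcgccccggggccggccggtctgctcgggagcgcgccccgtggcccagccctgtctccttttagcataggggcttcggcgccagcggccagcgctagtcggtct
TAX1BP1: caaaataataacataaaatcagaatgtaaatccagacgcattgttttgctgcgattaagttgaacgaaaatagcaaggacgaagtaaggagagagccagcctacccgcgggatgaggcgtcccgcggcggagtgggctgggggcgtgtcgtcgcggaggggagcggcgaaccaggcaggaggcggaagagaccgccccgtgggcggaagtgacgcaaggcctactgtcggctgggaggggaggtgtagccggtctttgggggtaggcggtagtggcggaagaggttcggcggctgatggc
The motifs searched on both strands were the CLEAR element of lysosomal genes that TFEB binds, in its full palindromic form, CACGTG, the E-box core inside it, and TGATGNAA, the composite element of ATF4 with CHOP. Windows were found for 28 of the 33 tested genes, and none for MAP1LC3A, RB1CC1, STX17, UVRAG and WDR45B. Some genes have more than 1 window, and the 28 genes have 37. The CLEAR element was in 0 of the 37 windows, against 0.353% of 35116 windows of all genes. CACGTG was in 2 of the 37 windows, 5.41%, against 7.26% of all windows. TGATGNAA was in 1 of the 37, that of WDR45, which is 2.7%, against 3.62% of all windows.

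The genes with CACGTG were ATG3, the enzyme that transfers ATG8 proteins to lipid, and ATG14, the subunit that directs the lipid kinase to sites of autophagosome formation. They are shown from 40 bases before to 20 bases after the gene start with the motif in capitals, ATG3 at chr3:112561943-112562002 and ATG14 at chr14:55411811-55411870, both on the minus strand of GRCh38.p14 (RefSeq).
ATG3: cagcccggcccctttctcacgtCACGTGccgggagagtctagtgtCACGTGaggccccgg
ATG14: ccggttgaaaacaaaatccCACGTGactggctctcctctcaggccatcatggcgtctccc
The motif starts at positions -18 and 6 relative to the ATG3 start and at -21 relative to the ATG14 start. These matches describe letters in a window, and neither gene passed the test for the hairpin in either line.

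In MM1.S, the hairpin went with lower levels of DRAM2, a lysosomal membrane protein related to the p53 target DRAM1, and of TAX1BP1, an autophagy receptor for ubiquitinated cargo. These 2 of 33 genes passed the test (limma, Benjamini-Hochberg adjusted p below 0.05 over all genes tested), 0 higher and 2 lower. Over all genes tested, 1.33% passed in either direction, 0.204% as higher and 1.12% as lower. Differences were negative for 27 of the 33 and positive for 6, that is 18.2%, against 50.4% positive over all genes. The median difference of the 33 was -0.13, and that of all genes tested was 0.005 on the log2 scale.

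**Figure D1:**
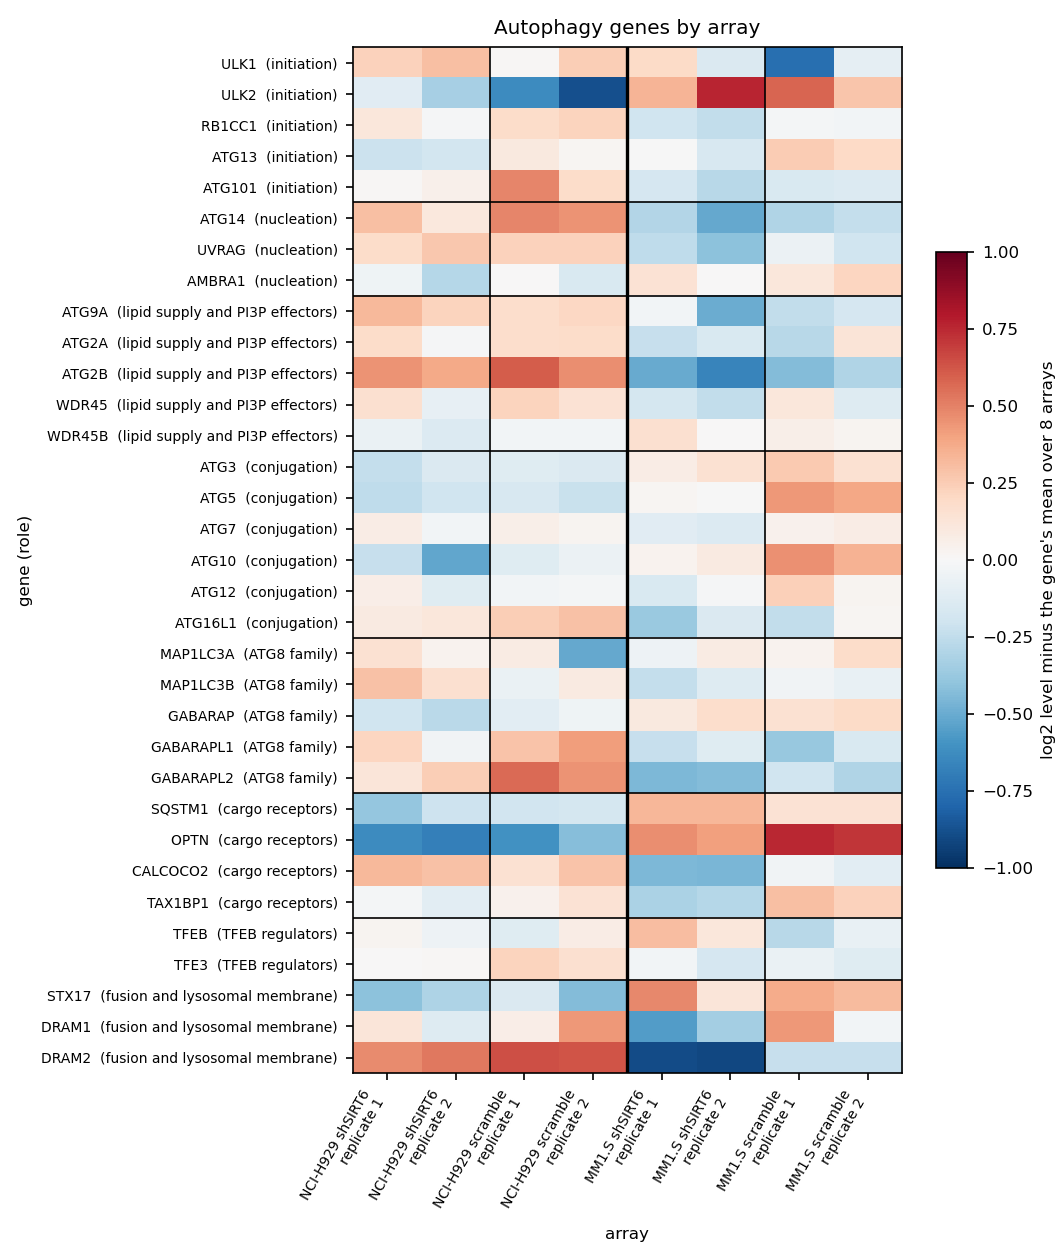
Log2 level of each of the 33 genes on each of the 8 arrays, shown as the difference from the gene's own mean over the 8 arrays (colour bar), with genes in rows grouped by role and arrays in columns. DRAM2, at 6.60 to 6.62 on the MM1.S arrays with shSIRT6 and 7.28 on both scramble arrays of that line, is dark blue in the shSIRT6 columns of MM1.S and red in all NCI-H929 columns.

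DRAM2 had log2 levels of 6.62 and 6.60 on the MM1.S arrays with shSIRT6, against 7.28 and 7.28 with scramble. It fell by 0.67 ± 0.0883 (limma SE, 95% interval -0.88 to -0.46, adjusted p = 0.0234), a ratio of 0.629. Both hairpin arrays lay below both scramble arrays by several times the gap between replicates. TAX1BP1 had 8.62 and 8.65 with shSIRT6, against 9.24 and 9.17 with scramble, and fell by 0.57 ± 0.0958 (limma, 95% interval -0.79 to -0.35, adjusted p = 0.0452), a ratio of 0.674. Its groups did not overlap either. Neither call was stable: leaving out any 1 of the 4 MM1.S arrays ended both, and leaving out any NCI-H929 array for TAX1BP1 or either NCI-H929 scramble array for DRAM2 did so too. Over all genes, 169 passed in MM1.S with all 8 arrays, and fewer passed when any 1 array was left out. The adjusted p reached 0.175 for DRAM2 and 0.263 for TAX1BP1 over all alternatives, while the differences stayed between -0.68 and -0.59 for DRAM2 and between -0.61 and -0.52 for TAX1BP1.

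The other genes of fusion and the lysosomal membrane were DRAM1 and STX17. DRAM1, a p53-induced lysosomal membrane protein, had 3.79 and 4.01 with shSIRT6 in MM1.S and 4.78 and 4.32 with scramble, a difference of -0.65 ± 0.196 (limma adjusted p = 0.143). Its arrays did not overlap, but the scramble arrays were far apart. STX17, the SNARE protein of autophagosomes that fuse with lysosomes, had 7.66 and 7.30 with shSIRT6 and 7.55 and 7.49 with scramble, and its groups overlapped.

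Of the cargo receptors, 1 of 4 passed the test in MM1.S, with a median difference of -0.34 over the 4. CALCOCO2 (NDP52), a receptor for bacteria and damaged mitochondria and a relative of TAX1BP1, had 6.66 and 6.65 with shSIRT6, against 7.07 and 7.00 with scramble. Its difference of -0.38 ± 0.0954 had a limma adjusted p of 0.0969, and the groups did not overlap. OPTN (optineurin), a receptor for ubiquitinated bacteria and mitochondria, differed by -0.30 ± 0.101 (adjusted p = 0.178). SQSTM1 (p62) was the only receptor with a positive value, at 7.51 on both shSIRT6 arrays and 7.32 on both scramble arrays. Its difference of 0.19 ± 0.0989 did not pass (limma adjusted p = 0.334), although the groups did not overlap.

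**Figure D2:**
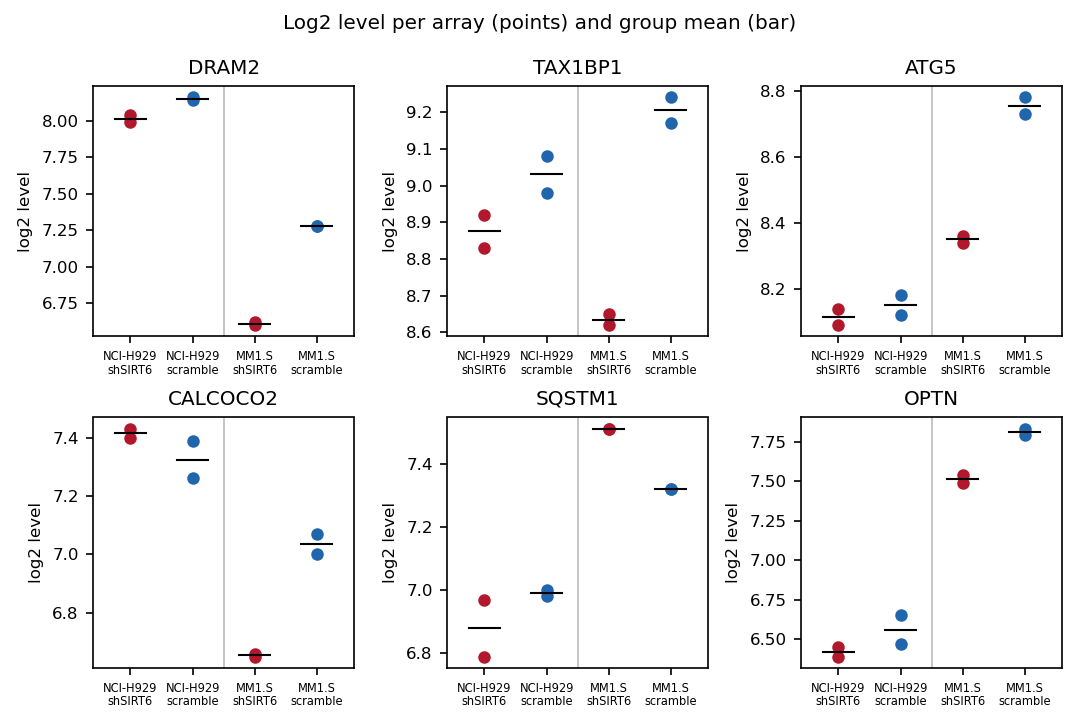
Log2 level on each array (points) with the mean of the 2 arrays of a group (bar) for 6 genes, with shSIRT6 left of scramble within each line and a separate vertical axis, not starting at 0, for each gene. In MM1.S the shSIRT6 points of DRAM2, TAX1BP1, ATG5, CALCOCO2 and OPTN lie below the scramble points and those of SQSTM1 above them.

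None of the 6 conjugation genes passed in MM1.S (0 of 6), and all 6 differences were negative, with a median of -0.20. ATG5, which forms the ATG12-ATG5 conjugate that directs lipidation of ATG8 proteins, had 8.36 and 8.34 with shSIRT6, against 8.78 and 8.73 with scramble. Its difference was -0.41 ± 0.0905 (limma adjusted p = 0.0805), and the groups did not overlap. ATG3 had 9.45 and 9.53 with shSIRT6 and 9.64 and 9.53 with scramble. Its groups met at 9.53, and the difference was -0.10 ± 0.0969 (adjusted p = 0.623). ATG10, the enzyme that joins ATG12 to ATG5, differed by -0.34 ± 0.12 (adjusted p = 0.186). ATG7, the activating enzyme of both conjugation reactions, ATG12 and ATG16L1 ranged from -0.22 to -0.15.

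No initiation gene passed in MM1.S (0 of 5, median -0.08), and their values pointed in both directions. ULK1, the kinase that starts autophagy, had 5.88 and 5.54 with shSIRT6 and 4.93 and 5.60 with scramble. The difference of 0.45 ± 0.222 (limma adjusted p = 0.317) leaned on 1 low scramble array, and the groups overlapped. ATG13, which links the kinase to the rest of its complex, had 7.15 and 6.99 with shSIRT6, against 7.41 and 7.35 with scramble, and differed by -0.31 ± 0.10 (adjusted p = 0.159). The kinase ULK2 differed by 0.12, the scaffold RB1CC1 (FIP200) by -0.20 and ATG101 by -0.08. The second row of ATG101, not used for the test, gave 0.015 in MM1.S.

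The remaining groups held no call in MM1.S. ATG14 had 6.29 and 6.07 with shSIRT6 and 6.28 and 6.34 with scramble, which overlapped, and the lipid kinase regulators UVRAG and AMBRA1 differed by -0.21 and -0.09. ATG9A, the membrane protein of the vesicles that seed autophagosomes, had 6.65 and 6.18 with shSIRT6 and 6.43 and 6.51 with scramble, and its shSIRT6 arrays lay on either side of the scramble arrays. The lipid transfer proteins ATG2A and ATG2B and the phosphoinositide-binding proteins WDR45 and WDR45B ranged from -0.22 to 0.04. Of the ATG8 family, MAP1LC3A had 3.75 and 3.88 with shSIRT6 and 3.83 and 3.98 with scramble, and the 5 members ranged from -0.19 to 0.09.

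TFEB had the lowest p among the genes with a positive difference in MM1.S. Its level was 4.21 and 4.02 with shSIRT6, against 3.63 and 3.83 with scramble, so the groups did not overlap. The difference of 0.39 ± 0.126 did not pass (limma adjusted p = 0.162). TFE3 had 6.32 and 6.18 with shSIRT6 and 6.28 and 6.23 with scramble, a difference of -0.005 ± 0.0965. The regulators therefore showed no shared direction. Over the 8 arrays TFEB (3.63 to 4.21) and MAP1LC3A (3.29 to 3.98) lay below the per-array means of the T and NK cell genes, 4.28 to 4.64. DRAM1 (3.79 to 4.78) and ULK2 (3.42 to 5.06) reached below those means, and MAP1LC3B (4.36 to 4.89) overlapped them. Levels this low could not be set against a background, so whether their differences reflect expressed transcript is not known.

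Without adjustment, 9 of the 33 genes had a limma p below 0.05 in MM1.S, 1 positive and 8 negative, against 19.6% of all genes tested in either direction, 8.25% as positive and 11.3% as negative. The groups did not overlap for 19 genes, with shSIRT6 lower for 17 and higher for 2. Over all genes, 26.3% were without overlap as lower and 24.4% as higher. These shares place the 33 on the lower side of all genes, but only DRAM2 and TAX1BP1 passed.

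**Figure D3:**
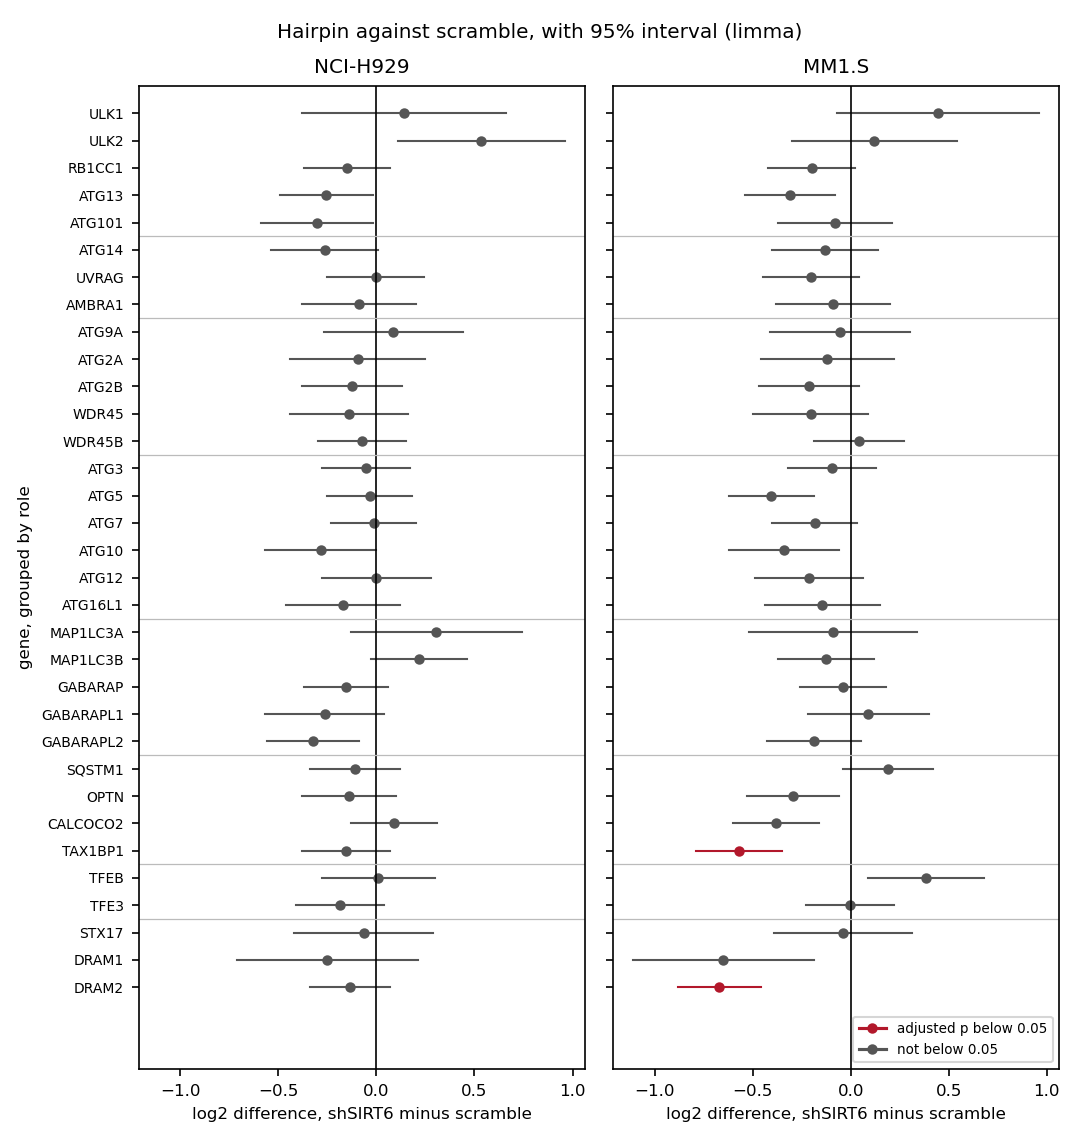
Log2 difference, shSIRT6 minus scramble (horizontal axis), with its 95% limma interval for each of the 33 genes (rows, grouped by role) in NCI-H929 (left) and MM1.S (right). DRAM2 and TAX1BP1 in MM1.S, in red, are the 2 with an adjusted p below 0.05, and in NCI-H929 there are 0.

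In NCI-H929 no gene of the autophagy machinery passed the test (0 of 33). Over all genes, 0.0236% did, so nearly no gene passed in this line. Without adjustment, 5 genes had a limma p below 0.05, against 14.5% of all genes. These were ULK2 on the positive side, where 4.74% of all genes lay, and GABARAPL2, ATG13, ATG101 and ATG10 on the negative side, where 9.75% lay. The median difference was -0.11, against -0.045 for all genes, and 7 of 33 differences, 21.2%, were positive, against 40.8% of all genes.

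ULK2 had 4.19 and 3.97 with shSIRT6 in NCI-H929, against 3.67 and 3.42 with scramble. The groups did not overlap, and the difference was 0.54 ± 0.182 (limma adjusted p = 0.274). GABARAPL2, an ATG8 protein that acts late in autophagosome formation, had 7.96 and 8.09 with shSIRT6, against 8.41 and 8.29 with scramble, a difference of -0.33 ± 0.102 (adjusted p = 0.256). ATG13 had 6.94 and 6.97 with shSIRT6, against 7.25 and 7.17 with scramble, a difference of -0.26 ± 0.10 (adjusted p = 0.32). ATG13 was thus below scramble on every hairpin array of both lines, without passing in either.

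ATG101, which stabilises ATG13, had 6.13 and 6.17 with shSIRT6, against 6.61 and 6.30 with scramble (difference -0.31 ± 0.122, limma adjusted p = 0.323). MAP1LC3B, the LC3 protein used most often as an autophagosome marker, had 4.89 and 4.76 with shSIRT6, against 4.53 and 4.69 with scramble (difference 0.22 ± 0.107, adjusted p = 0.399). Neither pair of groups overlapped on the rows tested. The second row of ATG101 had 5.63 and 4.98 with shSIRT6 and 5.47 and 5.55 with scramble. These overlapped, with a difference of -0.205. MAP1LC3A had 3.95 and 3.83 with shSIRT6 and 3.88 and 3.29 with scramble, which overlapped because only the second scramble array was low.

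The genes that fell in MM1.S had values of the same sign in NCI-H929. DRAM2 had 7.99 and 8.04 with shSIRT6, against 8.16 and 8.14 with scramble (difference -0.14 ± 0.0883, limma adjusted p = 0.514). TAX1BP1 had 8.92 and 8.83 with shSIRT6, against 8.98 and 9.08 with scramble (difference -0.16 ± 0.0958, adjusted p = 0.49). In both genes the hairpin arrays lay below the scramble arrays. TFEB had 3.93 and 3.85 with shSIRT6 and 3.78 and 3.98 with scramble, and these overlapped. TFE3 had 6.35 and 6.36 with shSIRT6, against 6.57 and 6.51 with scramble (difference -0.19 ± 0.0965, adjusted p = 0.417), without overlap.

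ULK1 had 5.92 and 5.99 with shSIRT6 in NCI-H929 and 5.70 and 5.93 with scramble, ATG14 had 6.88 and 6.69 with shSIRT6 and 7.07 and 7.03 with scramble, and ATG9A had 7.00 and 6.90 with shSIRT6 and 6.85 and 6.88 with scramble. The groups of ULK1 overlapped, while those of ATG14 and ATG9A did not. ATG3 had 9.14 and 9.23 with shSIRT6 and 9.25 and 9.23 with scramble, and STX17 had 6.77 and 6.87 with shSIRT6 and 7.03 and 6.74 with scramble. By role the medians in NCI-H929 were -0.15 for initiation, -0.09 for nucleation, -0.095 for lipid supply, -0.045 for conjugation, -0.16 for the ATG8 family and -0.13 for cargo receptors, with 0 calls in each. Shares without overlap were 16 of 33 as lower and 4 as higher, against 30% and 16.6% of all genes.

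Averaged over the lines, 0 of the 33 genes passed, against 0.0864% of all genes. The lowest p-values belonged to DRAM2 (-0.40 ± 0.0624, limma adjusted p = 0.0665), TAX1BP1 (-0.36 ± 0.0678, adjusted p = 0.0772) and ATG13 (-0.28 ± 0.0708, adjusted p = 0.106). Among positive differences they belonged to ULK2 (0.33 ± 0.128, adjusted p = 0.207), TFEB (0.20 ± 0.0889, adjusted p = 0.253) and ULK1 (0.29 ± 0.157, adjusted p = 0.326). Without adjustment 11 of the 33 had a p below 0.05, 1 positive and 10 negative, against 21.3% of all genes in either direction, 7.67% as positive and 13.6% as negative.

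Whether the hairpin's effect differed between the lines was tested as the effect in NCI-H929 minus that in MM1.S, and 0 of the 33 genes passed, against 0.204% of all genes. The lowest p-values were those of DRAM2, with effects of -0.14 in NCI-H929 and -0.67 in MM1.S and a difference of 0.54 ± 0.125 (limma adjusted p = 0.175), and of CALCOCO2, with effects of 0.09 in NCI-H929 and -0.38 in MM1.S and a difference of 0.47 ± 0.135 (adjusted p = 0.226). TAX1BP1 followed with a difference of 0.42 ± 0.136 (adjusted p = 0.261). Without adjustment 4 of the 33 had a p below 0.05, against 13.8% of all genes, and all 4 were positive, against 5.73%. On the negative side were SQSTM1 (-0.30 ± 0.14, adjusted p = 0.394), TFEB (-0.38 ± 0.178, adjusted p = 0.399) and GABARAPL1 (-0.36 ± 0.187, adjusted p = 0.443). A call in MM1.S and none in NCI-H929 is therefore not shown to be a difference between the lines.

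GABARAPL1, an ATG8 protein, had 6.42 and 6.17 with shSIRT6 in NCI-H929, against 6.49 and 6.63 with scramble. In MM1.S it had 5.98 and 6.09 with shSIRT6 and 5.83 and 6.06 with scramble. Its groups overlapped in MM1.S only.

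The lines themselves differed more than the constructs. With the scramble hairpin, 16 of the 33 genes differed between NCI-H929 and MM1.S, 9 higher and 7 lower in NCI-H929. Over all genes tested 38.3% passed, 20% as higher and 18.3% as lower. With shSIRT6, 15 of the 33 passed, 8 higher and 7 lower, against 37.9% of all genes, 18.4% as higher and 19.5% as lower. The arrays of the lines did not overlap for 19 genes as higher and 12 as lower in NCI-H929 with shSIRT6, against 32.4% and 33.2% of all genes, and for 15 as higher and 13 as lower with scramble, against 36% and 31.9%. The lines with scramble and the lines with shSIRT6 share no array. In both, 12 genes passed, which is 75% of the scramble calls and 80% of the shSIRT6 calls, against 75.8% and 76.7% over all genes, and all 12 had the same sign.

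Higher in NCI-H929 with both constructs were DRAM2, ATG2B, GABARAPL2, ATG14, UVRAG and CALCOCO2. DRAM2 was 1.41 ± 0.0883 higher with shSIRT6 (limma adjusted p = 2.8e-05) and 0.87 ± 0.0883 higher with scramble (adjusted p = 0.00023), a ratio of 2.65 with shSIRT6 and 1.83 with scramble. ATG2B, which moves lipids into the growing membrane, had 8.17 and 8.10 in NCI-H929 with shSIRT6, against 7.22 and 7.06 in MM1.S, and 8.33 and 8.19 in NCI-H929 with scramble, against 7.29 and 7.42 in MM1.S. Its difference was 1.00 ± 0.11 with shSIRT6 (adjusted p = 0.000335) and 0.91 ± 0.11 with scramble (adjusted p = 0.000543). All 4 NCI-H929 arrays lay above all 4 MM1.S arrays for both genes.

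GABARAPL2 had 7.39 and 7.41 on the MM1.S arrays with shSIRT6 and 7.64 and 7.54 with scramble, below every NCI-H929 array. It was 0.63 ± 0.102 higher in NCI-H929 with shSIRT6 (limma adjusted p = 0.00219) and 0.76 ± 0.102 higher with scramble (adjusted p = 0.000857). CALCOCO2 had 7.43 and 7.40 in NCI-H929 with shSIRT6 and 7.26 and 7.39 with scramble. It was 0.76 ± 0.0954 higher in NCI-H929 with shSIRT6 (adjusted p = 0.000617) and 0.29 ± 0.0954 higher with scramble (adjusted p = 0.0466), and the scramble call held in 6 of 17 alternatives, with an adjusted p of up to 0.231.

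Lower in NCI-H929 with both constructs were OPTN, ULK2, SQSTM1, STX17, ATG10 and ATG3. OPTN had 6.45 and 6.39 in NCI-H929 with shSIRT6, against 7.54 and 7.49 in MM1.S, and 6.47 and 6.65 in NCI-H929 with scramble, against 7.83 and 7.79 in MM1.S. The difference was -1.10 ± 0.101 with shSIRT6 (limma adjusted p = 0.00015) and -1.25 ± 0.101 with scramble (adjusted p = 8.4e-05), a ratio of 0.468 with shSIRT6 and 0.42 with scramble. Every NCI-H929 array lay below every MM1.S array. ATG3 was the least stable of the 6: its call with shSIRT6 (-0.31 ± 0.0969, adjusted p = 0.0414) held in 4 of 17 alternatives and was lost without any 1 of the 8 arrays, and its call with scramble (-0.35 ± 0.0969, adjusted p = 0.0253) held in 13 of 17. The calls of SQSTM1 with scramble and of ATG10 with shSIRT6 each held in 12 of 17 alternatives. Those of ULK2 with shSIRT6 and of STX17 with each construct held in 15 of 17, and that of ATG10 with scramble in 14 of 17.

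ULK2 had 4.64 and 5.06 in MM1.S with shSIRT6 and 4.88 and 4.58 with scramble. It was lower in NCI-H929 by -0.77 ± 0.182 with shSIRT6 (limma adjusted p = 0.0123) and -1.19 ± 0.182 with scramble (adjusted p = 0.00161). SQSTM1 had 6.79 and 6.97 in NCI-H929 with shSIRT6 and 6.98 and 7.00 with scramble. Its line difference was -0.63 ± 0.0989 with shSIRT6 (adjusted p = 0.00185) and -0.33 ± 0.0989 with scramble (adjusted p = 0.0326). STX17 differed by -0.66 ± 0.151 with shSIRT6 (adjusted p = 0.0108) and -0.64 ± 0.151 with scramble (adjusted p = 0.0126). Both cargo receptors that were lower in NCI-H929 bind ubiquitinated cargo, and CALCOCO2, which also does, was higher there.

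A further 4 genes passed with scramble and missed the threshold with shSIRT6: ATG5, lower in NCI-H929, and GABARAPL1, ATG101 and ATG16L1, higher. ATG5 had 8.18 and 8.12 in NCI-H929 with scramble, against 8.78 and 8.73 in MM1.S, a difference of -0.61 ± 0.0905 (limma adjusted p = 0.00143). With shSIRT6 it had 8.09 and 8.14 in NCI-H929, against 8.36 and 8.34 in MM1.S, and the difference of -0.24 ± 0.0905 did not pass (adjusted p = 0.0795). The test of whether these ATG5 differences differ is the test of the hairpin's effect between lines above, which had an adjusted p of 0.275. For GABARAPL1 that test had an adjusted p of 0.443 and for ATG101 one of 0.604. ATG16L1 differed by 0.36 with shSIRT6 (adjusted p = 0.0587) and 0.39 with scramble (adjusted p = 0.0458, a call that held in 8 of 17 alternatives), and its test of the difference had an adjusted p of 0.965. The ATG101 difference with scramble was 0.48 on the row tested and 0.13 on its second row. With shSIRT6 it was 0.255 on the row tested and -0.095 on the second row.

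The 3 genes that passed with shSIRT6 and missed the threshold with scramble were MAP1LC3B and ATG9A, higher in NCI-H929, and GABARAP, lower. MAP1LC3B differed by 0.41 with shSIRT6 and 0.07 with scramble, ATG9A by 0.54 with shSIRT6 and 0.40 with scramble, and GABARAP by -0.37 with shSIRT6 and -0.25 with scramble. The tests of whether the constructs differ in this had limma adjusted p-values of 0.375 for MAP1LC3B, 0.815 for ATG9A and 0.734 for GABARAP. For none of these 7 genes is the line difference shown to depend on the construct.

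**Figure D4:**
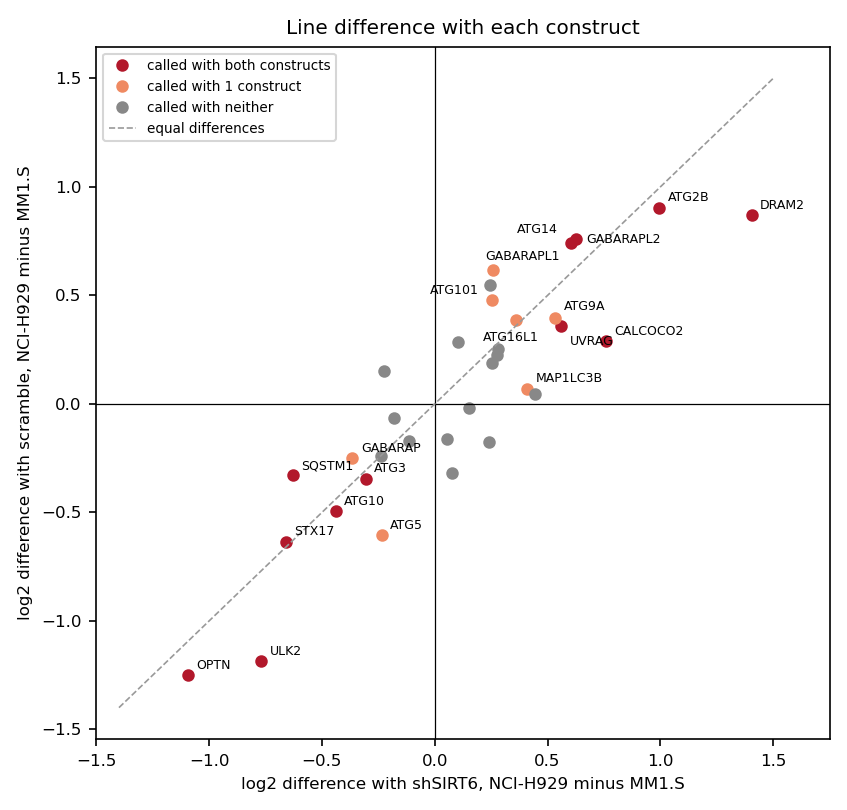
Log2 difference NCI-H929 minus MM1.S of each of the 33 genes with shSIRT6 (horizontal axis) and with scramble (vertical axis), coloured by whether limma called it, with the line of equal differences dashed. The 12 genes called with both constructs (red) lie at the upper right and lower left, with DRAM2 at the right and OPTN at the lower left.

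By role, both conditions had calls in the same direction in nucleation, where ATG14 and UVRAG were higher in NCI-H929 and AMBRA1 differed by -0.24 with each construct without passing. Of 6 conjugation genes, 2 were lower and 0 higher with shSIRT6, and 3 were lower and 1 higher with scramble. Of 4 cargo receptors, 1 was higher and 2 lower with either construct, and TAX1BP1 was the receptor that did not pass. Over all genes tested 18.4% passed as higher and 19.5% as lower with shSIRT6, and 20% as higher and 18.3% as lower with scramble. With so few genes to a role, these counts do not set a role apart. TFEB and TFE3 did not pass with either construct, with TFEB at -0.23 with shSIRT6 and 0.15 with scramble and TFE3 at 0.11 with shSIRT6 and 0.29 with scramble (limma adjusted p = 0.0515). The line differences had a median of 0.24 over the 33 genes with shSIRT6, against 0 over all genes, and 0.07 with scramble, against 0.03.

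Of the wider pathway, 98 genes were listed and 65 were tested. The AMPK subunits had no named row and were not analysed here. The 65 comprised mTORC1 and its regulators, further membrane factors, the fusion machinery, receptors for the endoplasmic reticulum and mitochondria, lysosomal proteins, and transcription factors. In MM1.S, 1 passed as higher and 1 as lower, against 0.204% of all genes as higher and 1.12% as lower. In NCI-H929, 1 passed, as higher, against 0.0236% of all genes in either direction.

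The gene that passed as higher in MM1.S was CTSD, which encodes cathepsin D, an aspartic protease of the lysosome. It had 9.66 and 9.82 with shSIRT6, against 9.10 and 9.19 with scramble, a rise of 0.60 ± 0.102 (limma adjusted p = 0.0452). In NCI-H929 it had 9.34 and 9.42 with shSIRT6, against 9.46 and 9.50 with scramble (difference -0.10 ± 0.102, adjusted p = 0.678), and the difference between the lines did not pass (-0.70 ± 0.144, adjusted p = 0.138). The hairpin arrays lay above scramble in MM1.S and below it in NCI-H929. The MM1.S call was lost when any 1 of the 8 arrays was left out, with an adjusted p of up to 0.265 over all alternatives.

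Among the 14 lysosomal enzymes and membrane proteins, 13 had positive differences in MM1.S, with a median of 0.16, and the hairpin arrays lay above scramble without overlap for 9 and below for 0. Over all genes, 50.4% were positive, 24.4% lay above without overlap and 26.3% below. The 3 tested myeloid markers were positive there as well, with CSF1R at 0.57 ± 0.148 (limma adjusted p = 0.109), CD14 at 0.12 and CD68 at 0.10, as was SDC1, which was called, and their part in the result was not tested. Besides CTSD none of the 14 passed. LAMP1, the main glycoprotein of the lysosomal membrane, differed by 0.22 ± 0.0918 (limma adjusted p = 0.255), the sialidase NEU1 by 0.36 ± 0.0964 (adjusted p = 0.116), its protective protein CTSA by 0.35 ± 0.0966 (adjusted p = 0.119) and HEXA by -0.02. In NCI-H929 3 of the 14 were positive, with a median of -0.05, but 8 were positive after quantile or cyclic loess normalization of the values, so the list has no settled direction in that line. The effects in NCI-H929 minus those in MM1.S were positive for 1 of 14 and had a median of -0.23, with 0 calls.

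DDIT3, the stress-induced transcription factor CHOP that partners ATF4 on autophagy genes, moved in opposite directions in the lines. In NCI-H929 it had 6.43 and 6.53 with shSIRT6, against 5.23 and 5.14 with scramble, a rise of 1.30 ± 0.122 (limma adjusted p = 0.0484). In MM1.S it had 5.34 and 5.63 with shSIRT6, against 6.72 and 6.64 with scramble, and fell by 1.20 ± 0.122 (adjusted p = 0.0107). The difference of the effects was 2.49 ± 0.173 (adjusted p = 0.00447), and it was the only gene of the 65 for which that test passed. The call in NCI-H929 held in 2 of 17 alternatives, that in MM1.S in 11 of 17 and that of the difference in 14 of 16. Without any 1 of the 4 MM1.S arrays the MM1.S call was lost, and without any 1 of the 8 arrays the NCI-H929 call was lost, with differences of 1.25 to 1.35 in NCI-H929 and -1.34 to -1.05 in MM1.S. The difference was lost without the second NCI-H929 shSIRT6 array.

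**Figure D5:**
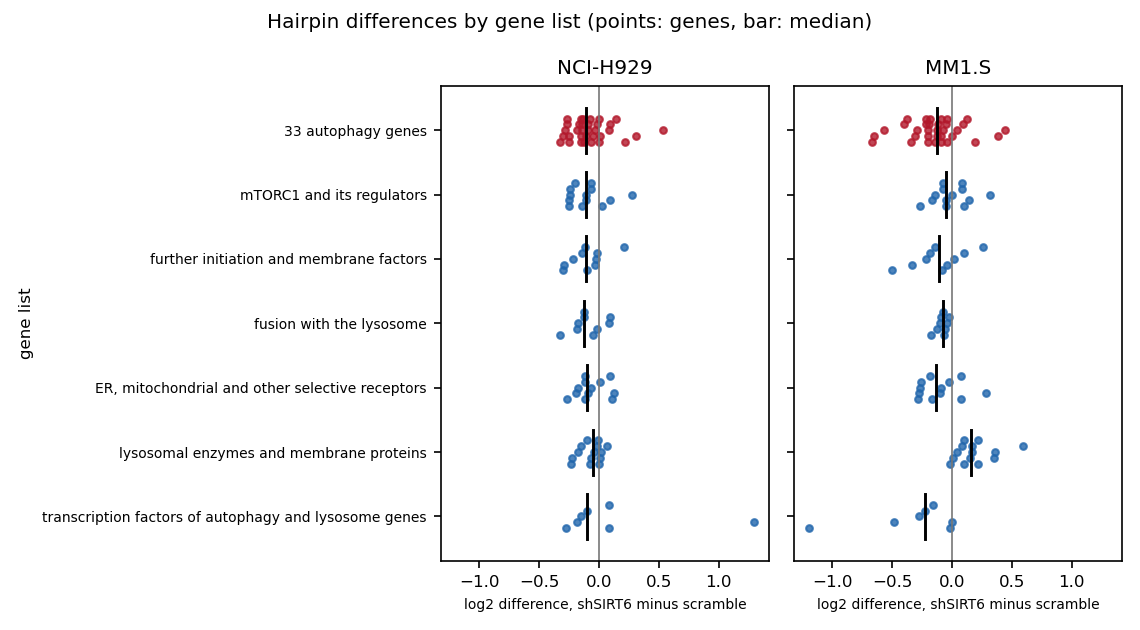
Log2 difference, shSIRT6 minus scramble (horizontal axis), of each gene (points) and the median (bar) for the 33 autophagy genes and the 6 lists of the wider pathway, in NCI-H929 (left) and MM1.S (right). The median of the 33 genes is -0.11 in NCI-H929 and -0.13 in MM1.S, and that of the 14 lysosomal proteins is -0.05 in NCI-H929 and 0.16 in MM1.S.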

How the data were processed

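RNA of 8 arrays was measured in 4 groups of 2. The values deposited by the authors are log2 levels with 2 decimals, 1 row per transcript cluster, made with RMA and the Transcriptome Analysis Console on hg19, per the submitters' processing notes. Variant and versions: not given in the sources used here. No probe could be set against its background. Array medians ran from 3.88 to 3.97. Of 48226 rows, 16098 carry 1 symbol, 0 several and 32128 none here.

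Genes above the 30th percentile of row means, a log2 level of 3.045, were tested. limma 3.58.1 in R 4.3.3 (lmFit, eBayes) fitted 4 group means to all 8 arrays, with 4 residual and 3.43 prior degrees of freedom. The threshold was 0.05 for p-values adjusted by Benjamini-Hochberg over 12734 genes. Ratios are powers of 2 of the log2 difference. An exact permutation test of 2 against 2 arrays cannot give a two-sided p below 0.333, so none was used. The number of arrays limits the precision.

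Per-array values are given for the genes called for the constructs, the 3 with the lowest p in each direction of a contrast, the first tested gene of each role, TFEB and TFE3. Genes of the wider pathway are named if called for the constructs or, between the lines, if among the 3 with the lowest p in each direction. OPTN, ATG10, ATG7 and the other genes given by their differences, DRAM1 with its per-array values, LAMP1, NEU1, CTSA and HEXA, and the markers CCND2, SDC1, CD14, CSF1R and CD68 fall outside these rules and were chosen after their values were seen. The list, roles and rules were chosen with earlier results of these data known. Promoters came from RefSeq, assembly GRCh38.p14, and no coordinates of hg19 are given. Alternatives changed the filter, the normalization, the row per gene, the prior of eBayes, the arrays fitted together and the replicate block, or left out each array.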

Additional observations from a re-analysis of the deposited data

Results flagged for a closer look

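For 3 of the 33 genes the hairpin arrays lay wholly on one side of the scramble arrays in NCI-H929 and wholly on the other side in MM1.S. Over all genes tested this held for 1153 genes, 9.05%, which is about the share among the 33, so the 33 did not stand out in this count. CALCOCO2 had a difference of effects, NCI-H929 minus MM1.S, of 0.47, with the hairpin arrays above scramble in NCI-H929 and below in MM1.S. MAP1LC3B had a difference of 0.34, also with the hairpin arrays above scramble in NCI-H929 and below in MM1.S. In MM1.S it had 4.36 and 4.47 with shSIRT6, against 4.56 and 4.52 with scramble. Its levels overlapped the per-array means of the T and NK cell genes, 4.28 to 4.64, and could not be set against a background. SQSTM1 had a difference of -0.30, with the hairpin arrays below scramble in NCI-H929 and above in MM1.S. limma's test of the difference did not pass for any of the 3, with Benjamini-Hochberg adjusted p-values of 0.226 for CALCOCO2, 0.375 for MAP1LC3B and 0.394 for SQSTM1. For 9 genes the arrays separated in the same direction in both lines, against 15.4% of all genes.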

How the results depend on the processing

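The alternatives were run for the 33 genes, SIRT6, 9 named genes of the wider pathway and 5 markers, and no called difference of these changed its sign under the 17 alternatives (16 for the mean of the lines and the difference). In MM1.S the count of 2 became 1 with no filter or with quantile normalization, 4 with a trend in eBayes, and 0 with the replicate block or with the line fitted alone. Leaving out 1 array gave 0 to 1. Over all genes 169 calls became 953 with the trend and 0 with the block. The count in NCI-H929 was 0 throughout. The mean of the lines had 0 calls, against 1 with a filter at the 50th percentile and 6 with the trend, and the difference had 0, against 2 with the trend. Over all genes the mean had 11 calls, against 98 with that filter and 911 with the trend. The difference had 26 over all genes, against 430 with the trend. Leaving out 1 array gave 8 to 16 calls between lines with scramble (16 in the full fit) and 10 to 14 with shSIRT6 (15). With the replicate block these were 13 and 12, the calls of ATG3 with both constructs, of SQSTM1 and CALCOCO2 with scramble and of ATG9A, ATG10 and MAP1LC3B with shSIRT6 being lost and that of ATG16L1 with shSIRT6 gained. Over all genes the block gave 4590 calls between lines with scramble and 4509 with shSIRT6, against 4875 and 4823 in the full fit. The block also ended every call named in the report for the constructs and their difference, those of DRAM2, TAX1BP1, CTSD, DDIT3, CCND2 and SDC1. Same-numbered arrays of the constructs deviated together with a correlation of 0.0767 in MM1.S and -0.00108 in NCI-H929 over 2 pairs each. No label states a pairing, and 2 pairs a line are too few to tell whether same-numbered arrays were handled together.

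Median differences of the 33 genes also moved. With cyclic loess they were -0.154 in MM1.S, -0.056 in NCI-H929, -0.078 for the mean, 0.101 for the difference and 0.047 between lines with scramble. With quantile normalization they were -0.038 in NCI-H929 and -0.053 for the mean, and with the mean of a gene's rows 0.15 between lines with shSIRT6. Over all genes tested, the cyclic loess medians were -0.019 in MM1.S, -0.024 in NCI-H929 and -0.024 for the mean. They were -0.003 for the difference and 0.013 between lines with scramble. The quantile medians over all genes were -0.007 in NCI-H929 and 0.001 for the mean. With the mean of a gene's rows that between lines with shSIRT6 was 0. Leaving out 1 array also moved the medians of the 33 genes. They ran from -0.18 to -0.13 in MM1.S, -0.155 to -0.09 in NCI-H929 and -0.15 to -0.098 for the mean. They ran from 0.025 to 0.125 for the difference, -0.005 to 0.15 between lines with scramble and 0.135 to 0.24 with shSIRT6. The SIRT6 difference between lines with shSIRT6 ran from 0.50 to 0.68 and lost its call in 3 of these fits. The cause of these shifts was not tested. DRAM2, OPTN, ATG2B, GABARAPL2 and ATG14 kept their line calls under all 17 alternatives with both constructs.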

Other observations

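Between the lines, 39 of the 65 genes of the wider pathway passed with scramble, 15 higher and 24 lower in NCI-H929, and 41 with shSIRT6, 14 higher and 27 lower. Over all genes 38.3% passed with scramble, 20% as higher and 18.3% as lower, and 37.9% with shSIRT6, 18.4% as higher and 19.5% as lower. BNIP3, a mitochondrial receptor for mitophagy induced by hypoxia, had 7.48 and 7.10 in NCI-H929 with shSIRT6, against 3.18 and 2.98 in MM1.S, and 7.46 and 7.31 in NCI-H929 with scramble, against 3.41 and 3.28 in MM1.S. The MM1.S levels lie near the filter level of 3.045 and could not be set against a background, so they may be bounds, and the true difference may be larger than measured. The measured difference was 4.21 ± 0.15 with shSIRT6 (limma adjusted p = 2.17e-06) and 4.04 ± 0.15 with scramble (adjusted p = 2.23e-06). The lysosomal protease CTSB was 1.35 higher in NCI-H929 with shSIRT6 and 1.58 higher with scramble, CTSF 1.24 higher with shSIRT6 and 1.51 higher with scramble, and RRAGA, a GTPase that brings mTORC1 to lysosomes, 1.65 higher with shSIRT6 and 1.36 higher with scramble.

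Lower in NCI-H929 were the transcription factor FOXO3 (-1.88 with shSIRT6 and -1.62 with scramble, or -1.26 with shSIRT6 and -1.07 with scramble as the mean of its rows), the mTORC1 activator RHEB (-1.28 with shSIRT6 and -1.25 with scramble) and LAMP1 (-1.15 with shSIRT6 and -0.78 with scramble). Of the 13 tested genes of mTORC1 and its regulators, 9 were lower and 1 higher in NCI-H929 with shSIRT6, against 19.5% of all genes as lower and 18.4% as higher, and 6 were lower and 2 higher with scramble, against 18.3% and 20%. CTSD was lower in NCI-H929 with shSIRT6 (-0.36 ± 0.102, limma adjusted p = 0.0266) and higher with scramble (0.34 ± 0.102, adjusted p = 0.0346), and each of these calls held in 13 of 17 alternatives. DDIT3 was 1.00 higher in NCI-H929 with shSIRT6 and lower with scramble (-1.495), and both held in 17 of 17.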
